A study of Caenorhabditis elegans with 9 samples.

Results

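The comparison described here is that of adult worms kept for 24 h with no bacteria (DR0) and worms fed without limit (AL). It takes 6 of the 9 libraries of the series, the 3 libraries labelled DR0 and the 3 labelled AL, and the remaining libraries, of worms on diluted bacteria, are not used here. Worms of both groups were wild-type (N2) and were raised, from eggs synchronized with bleach, on HT115, the *Escherichia coli* strain commonly used for RNAi feeding. On day 1 of adulthood they were moved to plates with 10 µg/ml kanamycin, which kept bacteria from growing, and were collected 24 h later. DR0 plates then held no bacteria and AL plates held undiluted HT115. Messenger RNA of whole worms was sequenced after poly(A) enrichment, and the values are counts of reads per gene. Whether libraries of a group stem from separate cultures is not stated, and p values here weigh differences only against the spread of these libraries, which may be technical.

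Worms without food live on what they have stored. Fat held in droplets of the intestine and epidermis is cut by lipases and oxidised in mitochondria and peroxisomes, and the glyoxylate cycle, which nematodes have and mammals lack, lets carbon from fat enter sugar synthesis. Hermaphrodites on the first days of adulthood lay most of their eggs, and the intestine exports much of its fat and protein to oocytes as yolk. The receptor kinase DAF-2, AMPK, TOR and several nuclear hormone receptors are known to tie such spending to food.

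Worms without food had far more RNA of some genes for burning fat and making sugar, of 2 invertebrate lysozymes and of a few uncharacterised genes, and far less RNA of many cuticle collagen genes. Of 13465 genes tested, 1493 (11.1%) rose and 1120 (8.32%) fell in DR0 against AL. Counts of members of the gene lists below are to be read beside these shares. A gene is said to rise or fall when edgeR's quasi-likelihood test gave a Benjamini–Hochberg adjusted p under 0.05 over all genes tested and its log2 fold change was over 1 or under −1, which is 2-fold. At the adjusted p alone, 4232 genes were higher and 4341 lower. The number of rises depended on weakly expressed genes. Among genes with at least 10 CPM (reads of a gene scaled to the size of its library, TMM-adjusted) in the higher group, 542 rose and 744 fell. By more than 3 on the log2 scale, 104 rose and 131 fell. The genes that rose took 7.15% of the reads in DR0 and 2.11% in AL, and the genes that fell took 2.75% in DR0 and 12.13% in AL. All 3 DR0 libraries lay on the same side of all 3 AL libraries for 1444 of the genes that rose and 1111 of the genes that fell. In RNA of whole worms, fewer cells of a type and less RNA per cell cannot be told apart.

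**Figure D1:**
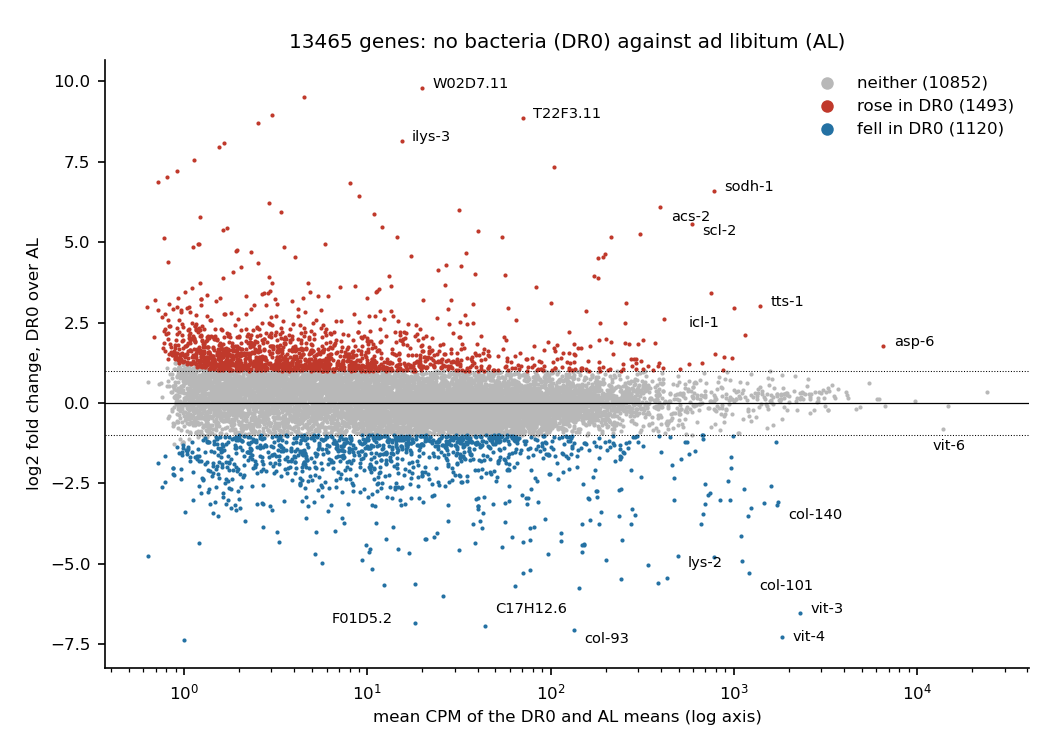
Each point is 1 of the 13465 genes tested, with the mean of its DR0 and AL levels in CPM on a log axis and its log2 fold change, DR0 over AL. Red points are the 1493 genes that rose, blue points the 1120 that fell, and dotted lines mark the 2-fold threshold. Rises are frequent at the low end of the level axis, whereas falls of 5 and more on the log2 scale reach genes of over 1000 CPM.

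Library totals were 9203611, 9553317 and 10659451 reads in DR0 and 9863736, 9586649 and 12012750 reads in AL. Although the deepest library was an AL one, more genes had a read in DR0 (19547, 19518 and 19951) than in AL (18274, 18292 and 18527). Within a group, log2 CPM of 2 libraries correlated across genes with r from 0.9848 to 0.9873, and between groups with r from 0.9164 to 0.9182. No library stood apart from its group. The median of all genes tested had a log2 fold change of 0.03, and no other scaling of the libraries moved it by more than 0.04.

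Where a gene lies and how long its transcript is went with the direction of change. On the X chromosome 15.2% of the 1982 genes tested rose and 9.03% fell, with a median log2 fold change of 0.31. On chromosome V 14.6% rose and 11.4% fell. On chromosomes I and III the shares that rose were 7.14% and 7.2%. Chromosome IV was the only nuclear chromosome on which more genes fell (11.6%) than rose (10.6%). In the quintile of genes with the lowest level, 24.1% rose, against 2.93% and 4.27% in the next-to-highest and highest quintile. In the quintile with the shortest exons, up to 786 bases in sum, 19.5% rose, and in the quintile with the longest 4.68%. The gradient with length was also present among genes of at least 10 CPM, where 10.5% of the shortest and 1.85% of the longest quintile rose. After the trend of the fold changes on exon length was taken out, 1323 genes rose and 1186 fell.

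**Figure D2:**
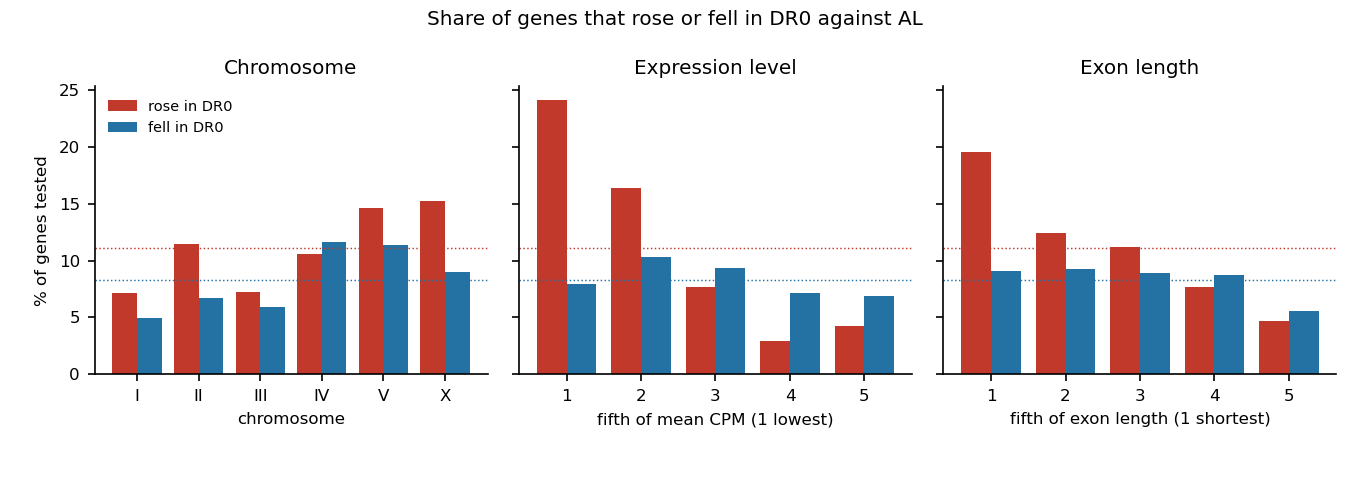
Bars give the percentage of genes tested that rose (red) or fell (blue) in DR0 against AL by nuclear chromosome, by quintile of mean CPM and by quintile of exon length. Dotted lines mark the shares over all genes, 11.1% and 8.32%. The share that rose is highest for the X chromosome, the lowest level and the shortest exons, whereas the share that fell varies less with level and length.

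The genes that rose most were close to silent in fed worms. W02D7.11 (WBGene00020946, chromosome V from 8302779 to 8304511 of WBcel235) had 36.1, 39.5 and 43.7 CPM in the DR0 libraries, against 0, 0.106 and 0 CPM in the AL libraries (log2 fold change 9.80, s.e. 0.315, adjusted p = 2.56e-25). T22F3.11 (WBGene00020700, chromosome V from 3612158 to 3614553) had 135, 143 and 144 CPM in the DR0 libraries, against 0.205, 0.212 and 0.422 CPM in the AL libraries (log2 fold change 8.86, s.e. 0.146, adjusted p = 8.24e-35). No DR0 library of either gene came near an AL library. The invertebrate-type lysozyme genes *ilys-3* and *ilys-2*, whose products break bacterial cell walls, are neighbours on chromosome IV. *ilys-3* (WBGene00016670, chromosome IV from 2464456 to 2465443) had 29.7, 33.9 and 28.5 CPM in the DR0 libraries, against 0.102, 0.106 and 0.0845 CPM in the AL libraries (log2 fold change 8.14, s.e. 0.289, adjusted p = 6.09e-24). Expression of *ilys-2* was 18.1, 20.9 and 14.8 CPM in DR0 and 0.512, 0 and 0.0845 CPM in AL (log2 fold change 6.44, s.e. 0.350). Since the 2 are related in sequence, the split of reads between them is uncertain, but both were near 0 in each AL library. K04A8.21, a saposin-like gene annotated as *spp-27*, had 202, 204 and 218 CPM in DR0 and 0.819, 1.59 and 1.44 CPM in AL (log2 fold change 7.32, s.e. 0.107, adjusted p = 1.29e-36). F40G12.5 had 15.7, 14.4 and 17.9 CPM in DR0 and 0.102, 0.106 and 0.169 CPM in AL. C54C8.12 and Y6E2A.4 rose by 5.87 and 5.49, and both were under 1 CPM in every AL library.

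Other large rises lay in genes with a known role in metabolism or protein protection. The alcohol dehydrogenase gene *sodh-1* (WBGene00010790, chromosome V from 11888248 to 11889650) had 1531, 1550.0 and 1521 CPM in the DR0 libraries, against 14.95, 16.4 and 15.97 CPM in the AL libraries, and the acyl-CoA synthetase gene *acs-2* (WBGene00009221, chromosome V from 15567394 to 15569897), which activates fatty acids for oxidation, had 770.2, 791 and 790.1 CPM in DR0 and 11.98, 12.29 and 10.1 CPM in AL. The lowest DR0 library of each gene lay far above its highest AL library. The small heat shock protein gene *hsp-12.6* had 63.0, 57.9 and 66.8 CPM in DR0 and 1.02, 1.27 and 0.676 CPM in AL (log2 fold change 5.998, s.e. 0.163, adjusted p = 1.13e-27). *scl-2*, which codes for a secreted protein of the SCP family, had 1119, 1174 and 1169.9 CPM in DR0 and 24.7, 27.8 and 21.8 CPM in AL (log2 fold change 5.55, s.e. 0.0489, adjusted p = 1.20e-43). That the libraries of these genes did not overlap was a condition of their choice.

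Genes at 0 in 1 group give only a lower bound. Of the genes tested, 9 had no read in any AL library, and since they could pass the filter on low counts only through DR0, that they rose was fixed by it. C26B9.7 alone had none in any DR0 library. F20E11.17 had 9.03, 8.20 and 9.77 CPM in DR0 and no read in AL, which is at least 93.3-fold higher against a floor of 3 reads over the 3 AL libraries. ZK355.8 and Y54G2A.57 were at least 62.8-fold and 52.7-fold higher by the same floor. The C-type lectin gene *clec-40* had 18, 23 and 27 reads in DR0 and none in AL, so it was at least 23.6-fold higher. C26B9.7 had no read in DR0 and 18, 18 and 27 reads in AL, and was thus at least 19.9-fold lower.

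Among genes with at least 10 CPM in the higher group and libraries apart, the largest fitted falls were of a yolk protein gene and a collagen gene. The vitellogenin gene *vit-4* (WBGene00006928, chromosome X from 3558769 to 3563965) had 22.9, 24.3 and 23.8 CPM in the DR0 libraries, against 3682, 3486 and 3700.1 CPM in the AL libraries (log2 fold change −7.26, s.e. 0.0373, adjusted p = 6.89e-51). The collagen gene *col-93* (WBGene00000668, chromosome III from 10984552 to 10985609) had 2.36, 2.08 and 1.58 CPM in the DR0 libraries, against 268, 266 and 265 CPM in the AL libraries (log2 fold change −7.06, s.e. 0.0888, adjusted p = 1.10e-38). Both were abundant in each AL library and low in each DR0 library. Reads of *vit-4* can also fit its near-identical copies *vit-3* and *vit-5*, and the 3 genes together had a log2 ratio of only −0.70. C17H12.6 (WBGene00015932, chromosome IV from 6821065 to 6822506) had 0.430, 1.14 and 0.558 CPM in DR0 and 90.02, 86.4 and 84.4 CPM in AL (log2 fold change −6.92, s.e. 0.156, adjusted p = 2.53e-30). F01D5.2 had 0.537, 0 and 0.372 CPM in DR0 and 38.9, 33.3 and 36.2 CPM in AL, and its neighbour F01D5.3 had 0.537, 0.623 and 0.930 CPM in DR0 and 35.6, 36.1 and 34.9 CPM in AL. These 2 genes lie side by side on chromosome II and are similar, so reads may be split between them, but their sum was low in every DR0 library. *drd-50* and F57F4.4, annotated as *bcf-1*, had log2 fold changes of −6.01 and −5.68, and T24B8.5, a gut gene of the p38 immune pathway annotated as *sysm-1*, had a log2 fold change of −5.76. The collagen genes *col-159*, *col-80* and *col-98* fell by 5.64, 5.61 and 5.48.

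**Figure D3:**
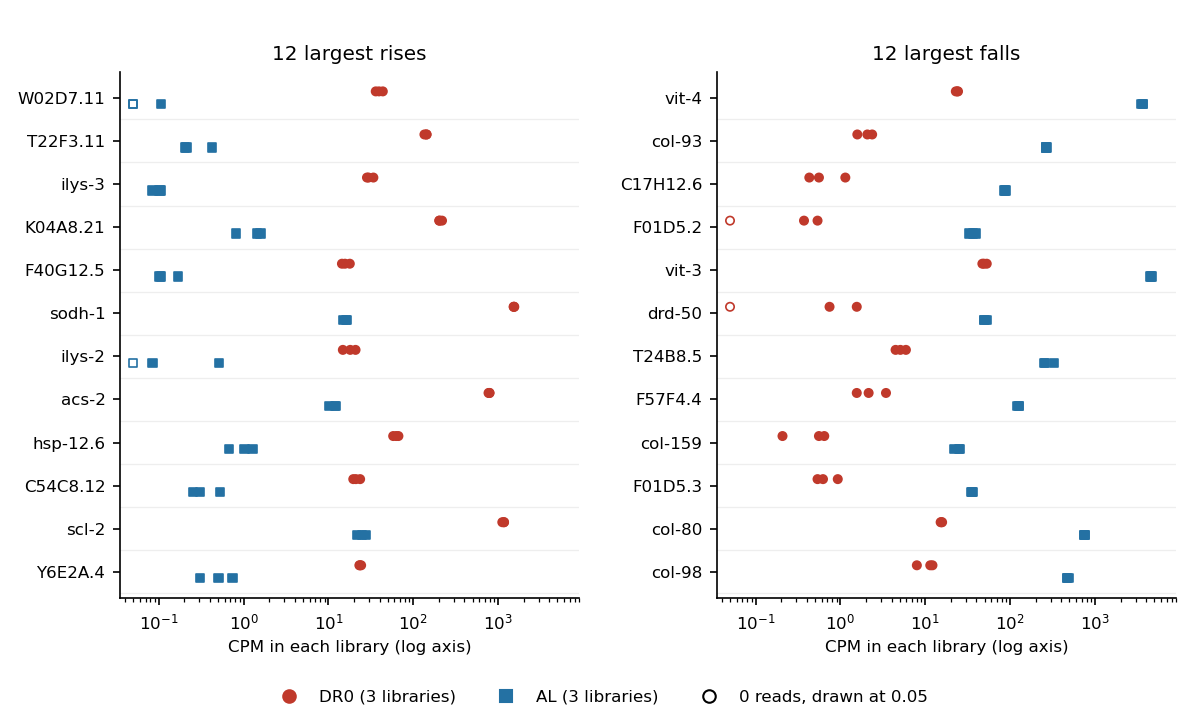
CPM in each library, on a log axis, for the 12 largest rises and the 12 largest falls among genes with at least 10 CPM in the higher group. Red circles are the 3 DR0 libraries, blue squares the 3 AL libraries, and open symbols mark 0 reads, drawn at 0.05. The DR0 and AL libraries of each gene are apart by more than 1 order of the axis, and that they did not overlap was a condition of the choice.

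Ranked by reads gained or lost and not by fold, other genes led. The aspartyl protease gene *asp-6* (WBGene00000219, chromosome V from 8267511 to 8268937) gained most, with 9977, 10282 and 10039 CPM in the DR0 libraries, against 3010.1, 2877 and 3049 CPM in the AL libraries (log2 fold change 1.76, adjusted p = 3.57e-40). *tts-1*, a long noncoding RNA (WBGene00006650, chromosome X from 1504131 to 1504841), had 2458, 2398 and 2553 CPM in DR0 and 287, 351 and 287 CPM in AL (log2 fold change 3.004, s.e. 0.0429, adjusted p = 7.20e-37). *lec-2*, which codes for a galectin, had 1345.1, 1401 and 1383 CPM in DR0 and 129, 128 and 129 CPM in AL (log2 fold change 3.42, s.e. 0.0327). The remaining genes of the 8 largest gains were *icl-1*, *sodh-1*, *pck-2*, *scl-2* and *aldo-2*. Of the 8 largest losses, *vit-3* and *vit-4* code for yolk proteins, *col-140*, *col-122*, *col-181*, *col-106* and *col-101* for cuticle collagens, and *lys-2* for a lysozyme. *col-140* had 359.7, 377 and 372 CPM in DR0 and 3120.4, 3118 and 3126 CPM in AL, and *lys-2* had 68.03, 68.6 and 77.8 CPM in DR0 and 2129, 2171 and 2135 CPM in AL (log2 fold change −4.90, s.e. 0.0373, adjusted p = 1.51e-45).

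Genes that release fatty acids from stores and lysosomes moved in either direction. Among lipases, 16 of 26 listed genes were tested, 4 rose and 3 fell, with a median log2 fold change of 0.33. The lysosomal lipase gene *lipl-3* had 63.0, 69.7 and 65.6 CPM in the DR0 libraries, against 3.17, 3.07 and 1.77 CPM in the AL libraries (log2 fold change 4.65, s.e. 0.137, adjusted p = 1.56e-26), and *lipl-4* had 5.37, 5.71 and 6.14 CPM in DR0 and 0.205, 0 and 0 CPM in AL. Neither gene had an AL library above 4 CPM. *lipl-5* was higher by 0.65, with 768, 731 and 745 CPM in DR0 and 488, 476 and 461 CPM in AL, and *lipl-1*, with 26.1, 25.7 and 32.7 CPM in DR0 and 22.8, 17.5 and 25.8 CPM in AL, had overlapping libraries. The lipase-like genes *lips-12* and *lips-10* rose by 2.15 and 1.01, but *lips-10* lost its call in 6 of 16 alternatives, over which its log2 fold change ran from 0.93 to 1.15. *lips-14*, now annotated as a pseudogene, and *lips-5* fell by 4.69 and 3.13. The lipid droplet lipase gene *atgl-1* was slightly lower, at −0.18 (adjusted p = 0.013).

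Activation and mitochondrial oxidation of fatty acids shifted between family members. Of acyl-CoA synthetases, carnitine transferases and enzymes of mitochondrial beta-oxidation, 46 of 54 listed genes were tested, 7 rose and 3 fell, with a median log2 fold change of 0.17. The summed level of these genes was 5379.7, 5396 and 5393 CPM in DR0 and 3627, 3586 and 3617 CPM in AL, so every DR0 library was above every AL library. *cpt-3*, a carnitine palmitoyltransferase gene, had 32.6, 35.2 and 31.7 CPM in the DR0 libraries, against 1.23, 0.318 and 2.37 CPM in the AL libraries (log2 fold change 4.58, s.e. 0.218, adjusted p = 6.36e-20). *hacd-1*, a hydroxyacyl-CoA dehydrogenase gene, had 267, 279 and 274 CPM in DR0 and 42.2, 34.97 and 36.8 CPM in AL (log2 fold change 2.85, s.e. 0.0556, adjusted p = 2.11e-32). *acs-3* rose by 2.86. In the other direction, *acs-1*, which activates monomethyl branched-chain fatty acids, had 28.8, 27.5 and 25.03 CPM in DR0 and 140.3, 139 and 129 CPM in AL (log2 fold change −2.33, s.e. 0.0678, adjusted p = 1.07e-26), and *cpt-5* fell by 1.84. *acdh-1*, the acyl-CoA dehydrogenase of the propionate shunt, had 80.7, 68.7 and 74.99 CPM in DR0 and 155, 159.6 and 153 CPM in AL, a log2 fold change of −1.06 that missed the threshold with quantile normalization (−0.98) or a minimum of 5 CPM (−0.998). It was the only gene that fell of 11 genes of propionate breakdown. Of the small lipid-binding protein genes, 1 of 8 rose and 1 fell. None rose with the length trend removed, without a filter on low counts or without AL replicate 2, and 3 fell with that trend removed, without the filter or without AL replicate 1 or DR0 replicate 1 or 3, and 2 without DR0 replicate 2.

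Peroxisomal genes had no common direction. Of peroxisome biogenesis and peroxisomal beta-oxidation genes, 27 were tested, 1 rose and 4 fell, with a median log2 fold change of 0.19. At the adjusted p, 11 were higher and 10 lower. The summed level was 1191, 1211 and 1206 CPM in DR0 and 1025, 1028.5 and 1032 CPM in AL. The gene that rose was the peroxisomal catalase *ctl-2*, with 187, 203 and 203 CPM in DR0 and 62.7, 74.9 and 70.6 CPM in AL (log2 fold change 1.51, s.e. 0.0554, adjusted p = 1.65e-23). The genes that fell were the transporter *pmp-1* and the acyl-CoA oxidases *acox-1.2*, *acox-1.3* and *acox-1.4*, with log2 fold changes between −1.52 and −1.17. These oxidases trim the side chains of ascarosides, the pheromones of the worm, and are neighbours with similar sequences. *daf-22* and *dhs-28*, which act later in the same chain shortening, were higher by 0.31 and 0.35 and did not reach the fold threshold.

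The bridge from fat to sugar rose in a few steps and not as a whole. *icl-1*, the isocitrate lyase and malate synthase of the glyoxylate cycle, had 1732, 1814 and 1798 CPM in the DR0 libraries, against 234, 221 and 235 CPM in the AL libraries (log2 fold change 2.95, s.e. 0.0311, adjusted p = 3.04e-41). *pck-2*, a phosphoenolpyruvate carboxykinase gene of gluconeogenesis, had 1871, 1893 and 1881 CPM in DR0 and 429, 427 and 437 CPM in AL (log2 fold change 2.13, s.e. 0.0267, adjusted p = 1.10e-38). For both, the libraries of a group lay close together and the groups far apart. *fbp-1*, the fructose bisphosphatase gene further along the path, was lower, with 112, 122.6 and 125.98 CPM in DR0 and 155, 157 and 150.2 CPM in AL (log2 fold change −0.35). Of 25 genes of glycolysis and pyruvate dehydrogenase, *aldo-2*, an aldolase gene, was the only gene to rise, with 1432, 1422 and 1401 CPM in DR0 and 544, 529.9 and 541 CPM in AL (log2 fold change 1.40, s.e. 0.0272, adjusted p = 2.06e-32), and none fell. It was joined by a further glycolysis gene with total-count scaling, quantile normalization, a minimum of 5 CPM or without DR0 replicate 1. *hxk-1*, a hexokinase gene, was lower by 0.62, and *gpd-2*, a glyceraldehyde 3-phosphate dehydrogenase gene, was higher by 0.76.

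Sugar storage genes were also divided. Of 13 genes of trehalose and glycogen metabolism, 3 rose and 1 fell. *tps-1*, a trehalose 6-phosphate synthase gene, had 41.9, 38.4 and 41.1 CPM in DR0 and 17.3, 16.2 and 16.4 CPM in AL (log2 fold change 1.28, s.e. 0.101, adjusted p = 1.38e-13). *gyg-1*, the glycogenin gene that primes glycogen, had 54.9, 63.97 and 61.1 CPM in DR0 and 23.04, 20.2 and 21.3 CPM in AL (log2 fold change 1.48, s.e. 0.0890, adjusted p = 6.80e-17), whereas the glycogen synthase gene *gsy-1* was lower by 0.48. Of the trehalases, *tre-5* rose by 1.79, with 4.41, 2.91 and 3.44 CPM in DR0 and 0.717, 1.17 and 1.18 CPM in AL, and *tre-2* had a log2 fold change of −1.07, which missed the threshold under quantile normalization (−0.95) and without DR0 replicate 1 (−0.97).

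Respiration genes stayed within the fold threshold. None of 47 nuclear genes of the respiratory chain and ATP synthase rose or fell, with log2 fold changes from −0.97 to 0.81. At the adjusted p alone, edgeR placed 28 of them higher and 9 lower, and 1 fell with quantile normalization, without a filter on low counts, with the length trend removed or without DR0 replicate 1 or 2. Their summed level was 12203, 12243 and 12198 CPM in DR0 and 10171, 10364 and 10231 CPM in AL. The 12 protein-coding genes of the mitochondrial genome ranged from −0.35 to 0.21. In the citrate cycle, *cts-1*, the citrate synthase gene, was higher by 0.94, with 891, 903 and 901 CPM in DR0 and 459, 476 and 470.1 CPM in AL. *idhg-2*, an isocitrate dehydrogenase subunit gene, fell by 1.28, the only call among 24 genes of the cycle.

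Enzymes that build and modify fatty acids included rises and falls. Of these, 19 of 21 listed genes were tested, 2 rose and 4 fell, with a median log2 fold change of −0.15. *pod-2*, the acetyl-CoA carboxylase gene that commits carbon to fat, had 781, 789 and 818 CPM in the DR0 libraries, against 344, 339 and 349 CPM in the AL libraries (log2 fold change 1.21, s.e. 0.0316, adjusted p = 3.02e-28). *fat-3*, a desaturase gene of polyunsaturated fatty acid synthesis, had 398, 388 and 401 CPM in DR0 and 156, 152 and 154 CPM in AL (log2 fold change 1.36, s.e. 0.0381, adjusted p = 3.15e-27). The next gene in the path from *pod-2*, the fatty acid synthase *fasn-1*, was lower by 0.44, with 134, 152 and 154 CPM in DR0 and 195.9, 198 and 202 CPM in AL. The 3 stearoyl- and palmitoyl-CoA desaturase genes parted. *fat-7* had 9.03, 12.25 and 9.40 CPM in DR0 and 71.2, 76.2 and 82.4 CPM in AL (log2 fold change −2.91, s.e. 0.102, adjusted p = 3.92e-24), *fat-6* was higher by 0.34, and *fat-5* by 0.89. *elo-5*, an elongase gene for branched-chain fatty acids, had 84.4, 81.2 and 76.5 CPM in DR0 and 215, 202 and 224 CPM in AL (log2 fold change −1.41, s.e. 0.0508, adjusted p = 1.02e-23). *dgat-2*, which acts in triglyceride synthesis, had 22.6, 23.8 and 23.6 CPM in DR0 and 53.9, 56.2 and 54.8 CPM in AL, and *elo-9* fell by 1.38.

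**Figure D4:**
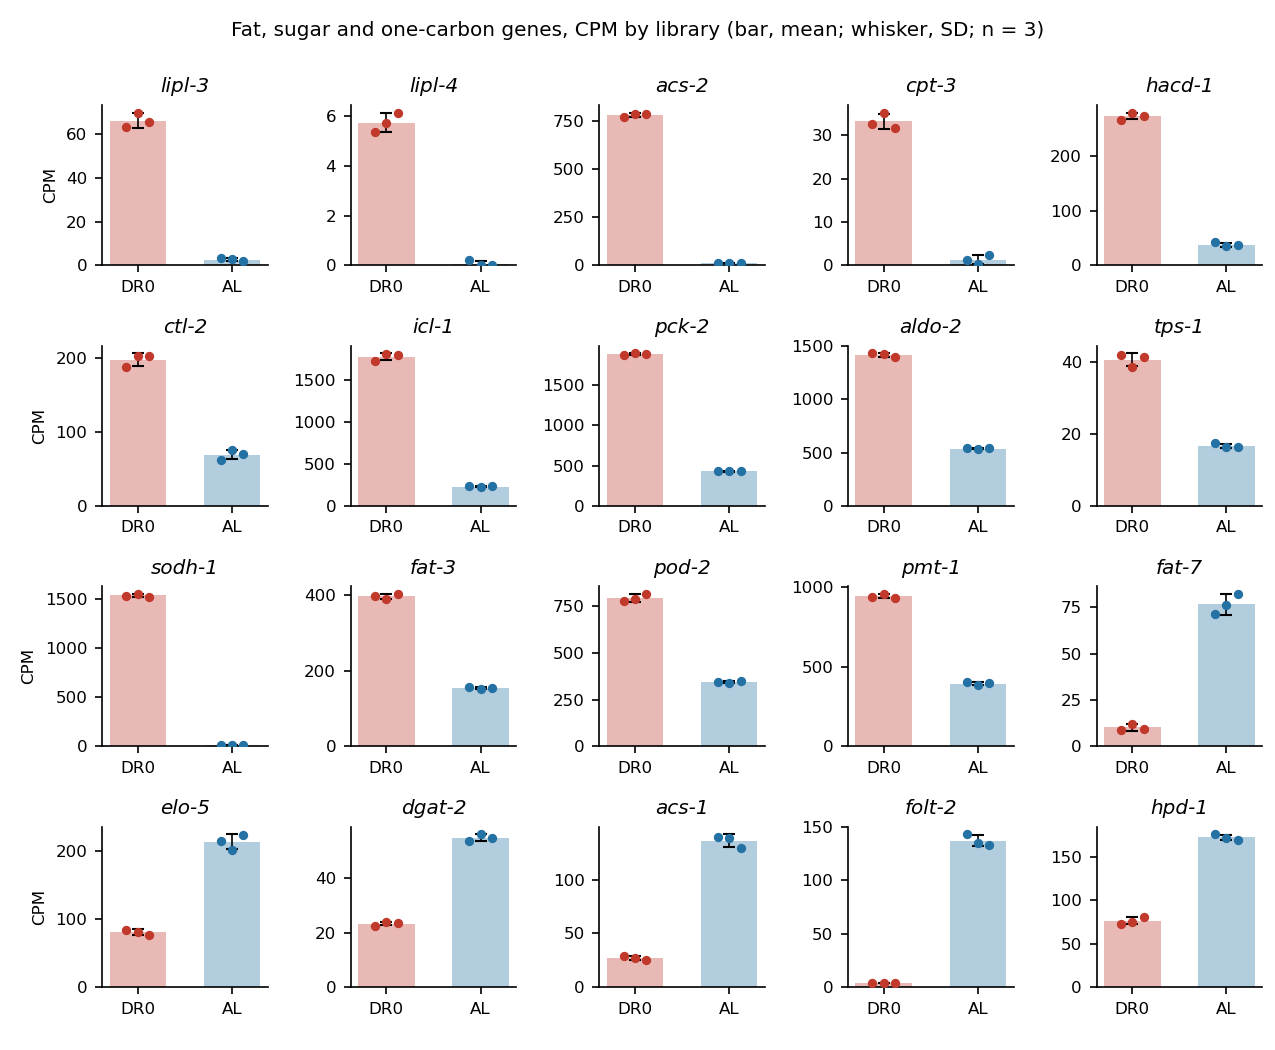
CPM of 20 genes of fat, sugar and one-carbon metabolism in DR0 (red, left) and AL (blue, right), with a point for each library, a bar for the mean and a whisker for the SD (n = 3). Each vertical axis starts at 0 and has its own scale. The first 14 genes, up to *pmt-1*, are higher in DR0 and the last 6, from *fat-7* on, are lower.

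Yolk genes fell in an uneven way. *vit-3* (WBGene00006927, chromosome X from 3567355 to 3572549) had 53.0, 47.0 and 49.03 CPM in the DR0 libraries, against 4472, 4547 and 4672 CPM in the AL libraries (log2 fold change −6.52, s.e. 0.0338, adjusted p = 6.89e-51), and *vit-1* had 51.8, 61.4 and 49.5 CPM in DR0 and 1528, 1479.9 and 1512 CPM in AL (log2 fold change −4.80, s.e. 0.0445, adjusted p = 5.88e-43). Their close relatives did not follow. *vit-5*, near-identical to *vit-3* and *vit-4*, had 14114, 14739.6 and 14168 CPM in DR0 and 15329, 14932 and 15299.6 CPM in AL, and *vit-2*, near-identical to *vit-1*, had 25916, 27624 and 27298 CPM in DR0 and 21503, 20598 and 21408 CPM in AL (log2 fold change 0.35). Both were chosen after their values were seen. Because reads can fit more than 1 copy, the sums are safer. *vit-3*, *vit-4* and *vit-5* together had 14189.8, 14811 and 14241 CPM in DR0 and 23484, 22965 and 23671 CPM in AL, a log2 ratio of −0.70. *vit-1* and *vit-2* together were higher by 0.25. *vit-6*, the most divergent yolk gene, had 9767, 10349 and 10029 CPM in DR0 and 17547, 17387 and 17651 CPM in AL (log2 fold change −0.80), and *rme-2*, the yolk receptor of oocytes, was lower by 0.99. All 6 genes took 5.047%, 5.327% and 5.204% of the reads in DR0 and 6.342%, 6.145% and 6.329% in AL.

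Supply of methyl groups and amino acid breakdown changed at single steps. Of one-carbon, folate, methionine and phosphocholine genes, 18 of 19 listed genes were tested, 1 rose and 2 fell, with a median log2 fold change of −0.13. *folt-2*, a folate transporter gene, had 3.33, 3.43 and 3.72 CPM in the DR0 libraries, against 143, 135 and 134 CPM in the AL libraries (log2 fold change −5.29, s.e. 0.0969, adjusted p = 2.66e-33). *cth-2*, a cystathionine gamma-lyase gene, had 104, 104 and 117 CPM in DR0 and 291, 299 and 303 CPM in AL. The gene that rose was *pmt-1*, with 938, 959 and 935 CPM in DR0 and 403, 385 and 397 CPM in AL (log2 fold change 1.26, s.e. 0.0302, adjusted p = 2.10e-29). PMT-1 and PMT-2 methylate phosphoethanolamine in turn on the way to phosphatidylcholine, yet *pmt-2* was lower, with 158, 154 and 155 CPM in DR0 and 249, 234 and 239.5 CPM in AL (log2 fold change −0.63). *sams-1*, which makes their methyl donor, was lower by 0.66. *hpd-1*, an enzyme gene of tyrosine breakdown, fell by 1.18, with 72.7, 75.4 and 80.7 CPM in DR0 and 176, 172 and 169.8 CPM in AL, whereas *fah-1*, the last step, was higher by 0.32.

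Transporters of amino acids, peptides and sugars changed in either direction. *pept-2* and *pept-1*, peptide transporter genes, had log2 fold changes of −1.78 and −0.90, and only *pept-2* passed the fold threshold. *swt-6*, a sugar transporter gene of the SWEET family, had 55.0, 60.8 and 58.3 CPM in DR0 and 173, 173 and 168 CPM in AL (log2 fold change −1.56, s.e. 0.0537, adjusted p = 2.28e-24), and its relative *swt-1* had 18.1, 17.97 and 17.4 CPM in DR0 and 2.25, 2.76 and 3.04 CPM in AL (log2 fold change 2.71, s.e. 0.187, adjusted p = 3.24e-15), so the 2 moved apart. Of amino acid transporter genes, *aat-4* fell by 1.74 and *aat-8* rose by 2.09, with 2.58, 1.87 and 2.33 CPM in DR0 and 1.02, 0.424 and 0.169 CPM in AL. Over the whole list, 31 of 35 listed genes were tested, 3 rose and 5 fell, with a median log2 fold change of 0.13. Of aquaporin, glycerol and arginine kinase genes, 1 of 15 rose and 3 fell. *aqp-1*, an aquaglyceroporin gene of the intestine, had 335, 346 and 338 CPM in DR0 and 24.7, 21.9 and 22.3 CPM in AL (log2 fold change 3.89, s.e. 0.0546, adjusted p = 4.16e-37), and *argk-1*, an arginine kinase gene, had 4.94, 4.15 and 7.35 CPM in DR0 and 50.4, 48.3 and 51.04 CPM in AL (log2 fold change −3.17, s.e. 0.133, adjusted p = 1.22e-21).

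Few genes of protein synthesis passed the fold threshold. Of 81 cytosolic ribosomal protein genes tested, 0 fell and 1 rose. That gene was *rpl-24.2*, an assembly factor by homology and not part of the mature ribosome, with 270.4, 278 and 285 CPM in DR0 and 129, 142 and 137 CPM in AL. Its log2 fold change was 1.03, and 0.99 without AL replicate 1. It lost its call in 3 of 16 alternatives, there, without a filter on low counts and with the length trend removed. At the adjusted p, 62 of the 81 were higher and 9 lower, with a median of 0.20. These genes are short, and the median was −0.01 once the trend with exon length was removed, so the direction depended on it. The ribosomal protein genes together took 162202, 162168 and 163526 CPM in DR0 and 140188, 144864 and 141681 CPM in AL. Of 71 mitochondrial ribosomal protein genes, 0 rose and 0 fell, with 17 higher and 33 lower at the adjusted p. *eef-2*, the elongation factor that moves the ribosome along, was higher, with 6524, 6615 and 6682 CPM in DR0 and 4218, 4245 and 4321 CPM in AL (log2 fold change 0.63), and *ifg-1*, the initiation factor eIF4G, was lower by 0.48. Of 70 translation factor and tRNA synthetase genes, 2 fell and 0 rose, and 1 fell without DR0 replicate 3, with total-count scaling, with quantile normalization or with the length trend removed. Of 22 nucleolar and ribosome assembly genes, *nog-1*, a GTPase gene of the large subunit, rose by 1.05 and none fell. Among 33 proteasome genes the subunit gene *rpn-6.2* fell by 1.77, whereas the other members tested were within the fold threshold.

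Lysosomal proteases were strongly divided between rises and falls, whereas subunit genes of the v-ATPase were lower. This proton pump acidifies lysosomes but also other compartments, such as the gut lumen, and its subunits differ in where they act. The paper cites work in which VHA-6 acted almost only on the gut lumen. Of 35 cathepsin and related protease genes, 8 rose and 11 fell, and their summed level was 20127, 20724 and 20334 CPM in DR0 and 15198, 14980.4 and 15243 CPM in AL. Among the listed genes, cathepsin B-like genes led the rises. *cpr-4* (WBGene00000784, chromosome V from 6614674 to 6615851) had 411, 411 and 423 CPM in the DR0 libraries, against 10.7, 11.8 and 12.2 CPM in the AL libraries (log2 fold change 5.16, s.e. 0.0585, adjusted p = 3.37e-40), and *cpr-1* had 323, 321 and 327 CPM in DR0 and 20.5, 22.04 and 20.9 CPM in AL (log2 fold change 3.94, s.e. 0.0547, adjusted p = 2.87e-37). *cpr-2* had 7.85, 7.89 and 7.44 CPM in DR0 and 0, 0.212 and 0.676 CPM in AL, and *cpr-5* rose by 3.08. The neighbours W07B8.4, *cpr-5* and *cpr-8* all rose, with log2 fold changes of 5.92, 3.08 and 1.07, and W07B8.4 is not in the list. The cathepsin L gene *cpl-1* was lower, with 1094, 1146 and 1105 CPM in DR0 and 1938, 1908 and 1919 CPM in AL (log2 fold change −0.79), and *asp-1*, an aspartyl protease gene of the gut, was higher by 0.11. The largest falls were of *pcp-2*, a prolyl carboxypeptidase-like gene, with 0.322, 0.312 and 1.02 CPM in DR0 and 17.1, 22.996 and 22.2 CPM in AL (log2 fold change −5.16, s.e. 0.269, adjusted p = 9.79e-19), and of *cln-3.1*, by 3.14. *asp-14* had 62.9, 66.98 and 66.5 CPM in DR0 and 413, 418 and 419 CPM in AL (log2 fold change −2.67, s.e. 0.0434, adjusted p = 5.20e-35).

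Of 21 v-ATPase subunit genes, 8 fell, 0 rose and 20 were lower at the adjusted p. *vha-5*, a subunit gene of the epidermis and excretory canal, had 11.4, 11.3 and 12.7 CPM in DR0 and 98.4, 105.02 and 100.5 CPM in AL (log2 fold change −3.09, s.e. 0.0839, adjusted p = 1.10e-27). *vha-6*, its counterpart in the intestine, had 115, 122.4 and 121 CPM in DR0 and 267, 284 and 283 CPM in AL (log2 fold change −1.22, s.e. 0.0436). *vha-8* and *vha-3* fell by 1.23 and 1.44. The summed level over the list was 2944, 2997 and 2981 CPM in DR0 and 4783, 4692 and 4796 CPM in AL. Of 37 autophagy and TORC1 genes, 3 rose (8.11%, under the share of all genes) and 0 fell, and 19 were higher and 8 lower at the adjusted p. With quantile normalization 6 rose. *sqst-1*, the cargo receptor related to p62, had 456, 481 and 476 CPM in DR0 and 217, 202 and 212 CPM in AL (log2 fold change 1.16, s.e. 0.0373, adjusted p = 2.22e-25). *unc-51*, the kinase gene that starts autophagosome formation, had 140.04, 147 and 143 CPM in DR0 and 68.8, 63.3 and 69.2 CPM in AL, and *lgg-2*, an ATG8 family gene, had 421, 437 and 435 CPM in DR0 and 208, 193 and 218 CPM in AL. Their log2 fold changes were 1.09 and 1.06, and *lgg-2* lost its call with the length trend removed. *lgg-1*, the other ATG8 gene, and *hlh-30*, the TFEB transcription factor gene, were higher by 0.85 and 0.94 and remained under the fold threshold.

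Regulators of the fasting response rose about as often as genes at large, of which 11.1% rose and 8.32% fell. Of 28 transcription factor genes of fasting and longevity 2 rose (7.14%) and 0 fell. Of 14 AMPK genes 2 rose (14.3%) and 0 fell, and of 10 insulin receptor pathway genes 1 rose (10.0%) and 0 fell. *pqm-1*, a transcription factor gene linked to fat transport and stress, had 100.6, 104 and 99.9 CPM in the DR0 libraries, against 36.4, 32.6 and 33.97 CPM in the AL libraries (log2 fold change 1.56, s.e. 0.0673, adjusted p = 2.59e-21). *nhr-80*, a nuclear hormone receptor gene that acts on fatty acid desaturases, had 24.5, 21.7 and 25.1 CPM in DR0 and 10.04, 11.97 and 9.72 CPM in AL (log2 fold change 1.17, s.e. 0.133, adjusted p = 1.22e-09). *crtc-1*, the coactivator that AMPK phosphorylates, had 38.6, 34.4 and 37.4 CPM in DR0 and 13.6, 15.7 and 13.4 CPM in AL (log2 fold change 1.38, s.e. 0.1098, adjusted p = 2.02e-13), and *aakg-4*, a gene for an AMPK gamma-type subunit, rose by 1.37. The kinase gene *aak-2* itself was higher by 0.62. *daf-16* was higher by 0.43, with 83.8, 89.3 and 82.3 CPM in DR0 and 68.8, 57.8 and 63.5 CPM in AL, and the insulin receptor gene *daf-2* had 33.5, 35.7 and 35.8 CPM in DR0 and 37.996, 41.5 and 40.2 CPM in AL (adjusted p = 0.0543). *skn-1* was lower by 0.38 and *nhr-49* higher by 0.34. The libraries of the 2 groups overlapped for *elt-2*, *pha-4* and *hsf-1*. Of 10 GATA factor genes, 2 rose and 1 fell, but 1 rose when DR0 replicate 2, DR0 replicate 3, AL replicate 2 or AL replicate 3 was left out, and none fell without DR0 replicate 1. Of 281 nuclear hormone receptor genes in the file, 184 were tested, 20 rose (10.9%) and 5 fell (2.72%). However, 8 fell without a filter on low counts, 3 with the length trend removed, and 2 without DR0 replicate 3 or with total-count scaling. *nhr-58* led the well-counted rises, with 43.1, 36.03 and 37.4 CPM in DR0 and 10.4, 10.6 and 12.2 CPM in AL (log2 fold change 1.80, s.e. 0.116, adjusted p = 4.98e-16).

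Genes for secreted signals rose more often than all genes tested, of which 11.1% rose and 8.32% fell. In the quintile of genes with the lowest level 24.1% rose, and in that with the shortest exons 19.5%. The part of level in the rises of signal genes was not tested. Members that passed the filter on low counts only through DR0 had to be higher there. Of 40 insulin-like peptide genes, 21 were tested, 9 rose (42.9%) and 1 fell (4.76%), with a median log2 fold change of 0.87. Only 5 rose with quantile normalization and 4 after removal of the trend with exon length. *ins-37* had 42.6, 35.8 and 37.8 CPM in the DR0 libraries, against 14.9, 10.5 and 14.8 CPM in the AL libraries (log2 fold change 1.52, s.e. 0.119, adjusted p = 1.09e-13), and *ins-2* had 8.17, 12.05 and 9.40 CPM in DR0 and 2.15, 2.97 and 3.72 CPM in AL. The fall was of *ins-19*, with 7.74, 6.54 and 6.70 CPM in DR0 and 33.5, 43.98 and 31.2 CPM in AL (log2 fold change −2.37, s.e. 0.141, adjusted p = 5.47e-17). *daf-28*, an agonist of DAF-2, had overlapping libraries, with 1.83, 2.39 and 1.58 CPM in DR0 and 0.922, 1.27 and 1.77 CPM in AL, and *ins-7* was higher by 0.56.

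Of 96 FMRFamide-like (*flp*) and neuropeptide-like (*nlp*) genes, 28 rose (29.2%) and 5 fell (5.21%), with a median of 0.68. With the length trend removed 18 rose, and 3 fell without DR0 replicate 2 or with quantile normalization. The summed level of the list was nonetheless lower in every DR0 library, with 2146, 2134 and 2171 CPM in DR0 and 2286, 2407 and 2345 CPM in AL. *nlp-39* had 52.2, 51.6 and 49.3 CPM in the DR0 libraries, against 2.05, 3.39 and 2.37 CPM in the AL libraries (log2 fold change 4.30, s.e. 0.144, adjusted p = 9.04e-25), and *nlp-51* had 23.4, 28.1 and 23.7 CPM in DR0 and 1.84, 1.38 and 2.70 CPM in AL (log2 fold change 3.63, s.e. 0.192, adjusted p = 1.52e-18). *nlp-48* rose by 2.91. The falls were of *nlp-24*, *nlp-26*, *nlp-29*, *nlp-40* and *nlp-56* and of no *flp* gene. Of 1648 chemoreceptor genes in the file, most had too few reads to be tested. Of those tested, 46 rose (37.1%) and 5 fell (4.03%), against 11.1% and 8.32% of all genes tested. Most are at a few CPM, and those that passed the filter on low counts only through DR0 had to be higher there. Of those that averaged 5 CPM or more, 5 rose and 2 fell. *srh-2* had 7.31, 8.62 and 11.1 CPM in DR0 and 1.23, 2.44 and 0.929 CPM in AL (log2 fold change 2.58, s.e. 0.290, adjusted p = 1.03e-09) and *sri-40* had 15.05, 14.1 and 14.6 CPM in DR0 and 35.7, 41.3 and 43.3 CPM in AL (log2 fold change −1.46, s.e. 0.108, adjusted p = 2.42e-14). By symbol prefix, and chosen after their values were seen, 9 of 28 *npr* neuropeptide receptor genes rose and 0 fell. General neuron genes moved less. Of 10 pan-neuronal markers, 0 rose, 0 fell, and 5 were higher at the adjusted p, with a median of 0.42 and a summed level of 581, 589 and 579 CPM in DR0 and 433, 438 and 412 CPM in AL.

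Among protein folding genes, most of those that rose or fell were of the small heat shock family. Of 14 small heat shock protein genes, 5 rose and 3 fell, and 3 rose with quantile normalization. *hsp-12.3*, a close relative of *hsp-12.6*, had 111, 104.99 and 101.2 CPM in DR0 and 4.20, 3.29 and 1.61 CPM in AL (log2 fold change 5.16, s.e. 0.128, adjusted p = 5.80e-29), whereas *hsp-17* had 24.2, 26.8 and 29.2 CPM in DR0 and 147, 144 and 137 CPM in AL (log2 fold change −2.41, s.e. 0.0679, adjusted p = 3.82e-27) and *hsp-43* had 54.4, 48.0 and 44.6 CPM in DR0 and 145, 145 and 147 CPM in AL. *hsp-70*, a heat-inducible HSP70 gene, had 17.6, 17.97 and 17.2 CPM in DR0 and 5.63, 5.51 and 5.58 CPM in AL (log2 fold change 1.66, s.e. 0.159, adjusted p = 2.32e-11), and the constitutive *hsp-1* was higher by 0.38. None of 17 genes of folding and stress sensing in the endoplasmic reticulum rose or fell. *hsp-4*, the BiP gene that reports stress there, was lower by 0.64, and *xbp-1* higher by 0.63. 8 of the 17 were higher and 5 lower at the adjusted p.

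Antioxidant and metal genes held several large rises. Of 16 superoxide dismutase, catalase, peroxiredoxin and thioredoxin genes, 7 rose (43.8%) and 0 fell, against 11.1% and 8.32% of all genes tested. *trx-3*, a thioredoxin gene of the intestine, had 9.57, 9.14 and 10.7 CPM in DR0 and 1.54, 0.954 and 1.44 CPM in AL (log2 fold change 2.88, s.e. 0.263, adjusted p = 6.56e-12). *ctl-1*, the cytosolic catalase, rose by 1.61 and *sod-5* by 1.88. *sod-3* had 7.85, 7.37 and 6.33 CPM in DR0 and 3.89, 2.54 and 3.38 CPM in AL, and its log2 fold change of 1.12 was under the threshold without AL replicate 2 (0.97) and with quantile normalization (0.95). *mtl-1*, a metallothionein gene, had 350.2, 331 and 358 CPM in the DR0 libraries, against 15.9, 12.2 and 17.1 CPM in the AL libraries (log2 fold change 4.51, s.e. 0.0664, adjusted p = 1.79e-36), and its relative *mtl-2* had 32.9, 32.7 and 24.8 CPM in DR0 and 54.8, 76.6 and 64.2 CPM in AL, with a log2 fold change of −1.12, or −0.96 with quantile normalization and −0.99 without DR0 replicate 3. Of 19 metal and heme genes 5 rose (26.3%) and 7 fell (36.8%), and 3 rose without AL replicate 1, without DR0 replicate 3 or with quantile normalization. *ftn-1*, a ferritin gene of the intestine that stores iron, had 100.8, 103 and 113 CPM in the DR0 libraries, against 6.04, 7.52 and 6.42 CPM in the AL libraries (log2 fold change 3.99, s.e. 0.0957, adjusted p = 1.96e-29), and *smf-3*, which imports iron and manganese, rose by 2.41. *hrg-7*, which codes for a secreted signal of heme status, had 8.28, 10.6 and 9.03 CPM in DR0 and 66.2, 72.3 and 75.5 CPM in AL (log2 fold change −2.94, s.e. 0.102, adjusted p = 2.95e-24), and the heme importer gene *hrg-4* fell by 1.84. *cdr-1*, a cadmium-responsive gene, and its relative *cdr-2* fell by 2.997 and 1.66.

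Genes of 3 detoxification enzyme families included both rises and falls. Over all genes tested, 11.1% rose and 8.32% fell. Of 57 UDP-glucuronosyltransferase genes, 5 rose (8.77%) and 17 fell (29.8%). Of 38 glutathione S-transferase genes, 6 rose (15.8%) and 10 fell (26.3%). Of 53 cytochrome P450 genes, 10 rose (18.9%) and 11 fell (20.8%). *ugt-22* had 6.13, 7.58 and 5.86 CPM in the DR0 libraries, against 112, 116 and 123.5 CPM in the AL libraries (log2 fold change −4.17, s.e. 0.0940, adjusted p = 2.50e-30), and *gst-38* had 10.96, 11.3 and 10.9 CPM in DR0 and 208, 222 and 219.9 CPM in AL (log2 fold change −4.29, s.e. 0.0689, adjusted p = 3.26e-35). *gst-30* rose by 2.29, with 31.4, 34.2 and 31.4 CPM in DR0 and 5.12, 6.99 and 7.52 CPM in AL. *cyp-35C1* had 2.69, 1.04 and 2.61 CPM in DR0 and 42.2, 41.5 and 35.7 CPM in AL (log2 fold change −4.22, s.e. 0.177, adjusted p = 1.12e-21), and its relatives *cyp-35A5* and *cyp-35A3* fell by 3.56 and 2.70. *cyp-37B1* and *cyp-34A9* rose by 3.196 and 2.93, with mean levels of 51.8 and 48.999 CPM in DR0. Of 49 flavin-containing monooxygenase, alcohol and short-chain dehydrogenase genes, 9 rose (18.4%) and 7 fell (14.3%). *fmo-2*, a flavin-containing monooxygenase gene, had 80.7, 80.3 and 74.5 CPM in DR0 and 1.02, 1.27 and 3.21 CPM in AL (log2 fold change 5.34, s.e. 0.155, adjusted p = 9.73e-27), and *fmo-1* rose by 1.61.

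Of the immune genes, those of the p38 list fell more often than they rose. C-type lectin, lysozyme and saposin-like genes moved in either direction, and more *pals* genes rose than fell. Of 23 genes of the p38 pathway and its effectors, 3 rose and 12 fell, with a median log2 fold change of −1.44. The kinase gene *pmk-1* itself was higher by 0.37, with 43.6, 44.8 and 45.2 CPM in DR0 and 35.9, 31.7 and 35.3 CPM in AL. Its effectors *irg-4* and *irg-5* had 31.1, 33.2 and 34.7 CPM in DR0 and 347, 352 and 335 CPM in AL, and 10.96, 12.5 and 15.1 CPM in DR0 and 104.8, 100.1 and 112 CPM in AL, which are falls of 3.38 and 3.03 on the log2 scale. *dod-17* fell by 2.72. The genes that rose were *dod-6*, with 453, 486 and 454 CPM in DR0 and 53.2, 53.5 and 54.4 CPM in AL (log2 fold change 3.111, s.e. 0.0451, adjusted p = 1.13e-36), *dod-3*, by 2.57, and *irg-1*, by 1.27. The *dod* genes are named for lying downstream of DAF-16, so not every member of this list answers to p38. Of 93 C-type lectin genes tested out of 264 in the file, 20 rose (21.5%) and 25 fell (26.9%). *clec-41* had 115, 118.8 and 112 CPM in DR0 and 1248, 1246 and 1239 CPM in AL (log2 fold change −3.43, s.e. 0.0340, adjusted p = 4.29e-42), and *clec-265* and *clec-67* fell by 4.30 and 3.59. Of the genes that rose, *clec-60* had 5.37, 4.98 and 6.61 CPM in DR0 and 0.410, 0.424 and 0.422 CPM in AL. *clec-83*, chosen after its values were seen as the highest of them, had 249, 258 and 253 CPM in DR0 and 74.3, 76.1 and 73.6 CPM in AL.

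Among lysozyme and saposin-like genes the 2 kinds of lysozyme did not move as units. 8 of 27 rose and 7 fell, and their summed level was 4209, 4118 and 4247 CPM in DR0 and 8946, 9439 and 8963 CPM in AL. *lys-4* had 60.2, 63.8 and 54.2 CPM in DR0 and 10.04, 9.22 and 7.60 CPM in AL (log2 fold change 2.74, s.e. 0.1104, adjusted p = 3.43e-22), opposite to *lys-2*, and *ilys-5* had 40.7, 38.8 and 45.96 CPM in DR0 and 320.0, 321 and 314 CPM in AL (log2 fold change −2.92, s.e. 0.0525, adjusted p = 1.37e-33), opposite to *ilys-2* and *ilys-3*. *spp-1*, a saposin-like antimicrobial gene, rose by 1.84, and *spp-4* fell by 4.04. Of 18 *pals* genes, a family that includes regulators of the response to intracellular pathogens, 9 rose and 1 fell, although only 1 rose among those that averaged 5 CPM or more. *pals-22*, a repressor of that response, was higher by 0.45, and *pals-24*, the member that fell, had 41.5, 39.2 and 46.6 CPM in DR0 and 107, 95.3 and 103 CPM in AL (log2 fold change −1.26, s.e. 0.0692, adjusted p = 4.71e-18).

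Cuticle genes lost more reads than any other list. Of 159 numbered collagen genes, 84 were tested, 41 fell and 16 rose, and their summed level was 3301, 3338 and 3335 CPM in DR0 and 31244, 31752 and 31752 CPM in AL. *col-19*, a marker of the adult cuticle, had 37.7, 32.2 and 36.01 CPM in the DR0 libraries, against 928, 972 and 977 CPM in the AL libraries (log2 fold change −4.76, s.e. 0.0453, adjusted p = 1.31e-42). *col-101* had 54.7, 63.6 and 61.9 CPM in DR0 and 2355, 2330.2 and 2354 CPM in AL (log2 fold change −5.29, s.e. 0.0373, adjusted p = 1.61e-46), and *col-122*, *col-181* and *col-106* had log2 fold changes of −3.16, −3.12 and −2.59. The collagens that rose were weakly expressed, with 2 of them at a mean of at least 5 CPM, and 10 rose with quantile normalization. *col-88*, which rose by 2.96, had 1.505, 1.97 and 2.05 CPM in DR0 and 0.307, 0.212 and 0.169 CPM in AL. Of 11 collagen and related genes that shape the body, 1 rose, 1 fell and 7 were higher at the adjusted p, and 3 rose with quantile normalization, 2 rose without AL replicate 3, and 2 fell without a filter on low counts, with a minimum of 1 CPM, or without AL replicate 2 or DR0 replicate 2. *dpy-2*, a furrow collagen gene, rose by 1.51, with 9.78, 12.25 and 12.8 CPM in DR0 and 4.10, 3.39 and 4.65 CPM in AL, and *dpy-7* was higher by 0.90. *bli-6*, whose mutants have blistered cuticles, fell by 2.11, with 0.860, 1.04 and 1.02 CPM in DR0 and 3.99, 4.98 and 3.80 CPM in AL. Of 51 hedgehog- and patched-related genes 7 rose and 14 fell, of 32 astacin protease and moulting genes 2 rose and 7 fell, of 46 transthyretin-related genes 9 rose and 10 fell, and of 24 epidermal antimicrobial peptide genes 6 rose and 9 fell. With quantile normalization, 4 hedgehog-related and 3 antimicrobial genes rose, and with the length trend removed 1 antimicrobial and 5 transthyretin-related genes rose. *grd-3* and *grd-4*, of the hedgehog-related family, had 2.58, 4.88 and 3.35 CPM in DR0 and 77.1, 73.8 and 71.3 CPM in AL, and 1.07, 0.935 and 1.77 CPM in DR0 and 25.4, 23.1 and 23.997 CPM in AL, with log2 fold changes of −4.36 and −4.23. *mlt-7*, a peroxidase gene of cuticle cross-linking, fell by 2.30 and the astacin protease gene *nas-20* by 2.19. *fbn-1*, a fibrillin-like gene, rose by 1.08. By symbol prefix, and chosen after their values were seen, 9 of 22 cuticlin-like (*cutl*) genes rose and 0 fell.

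**Figure D5:**
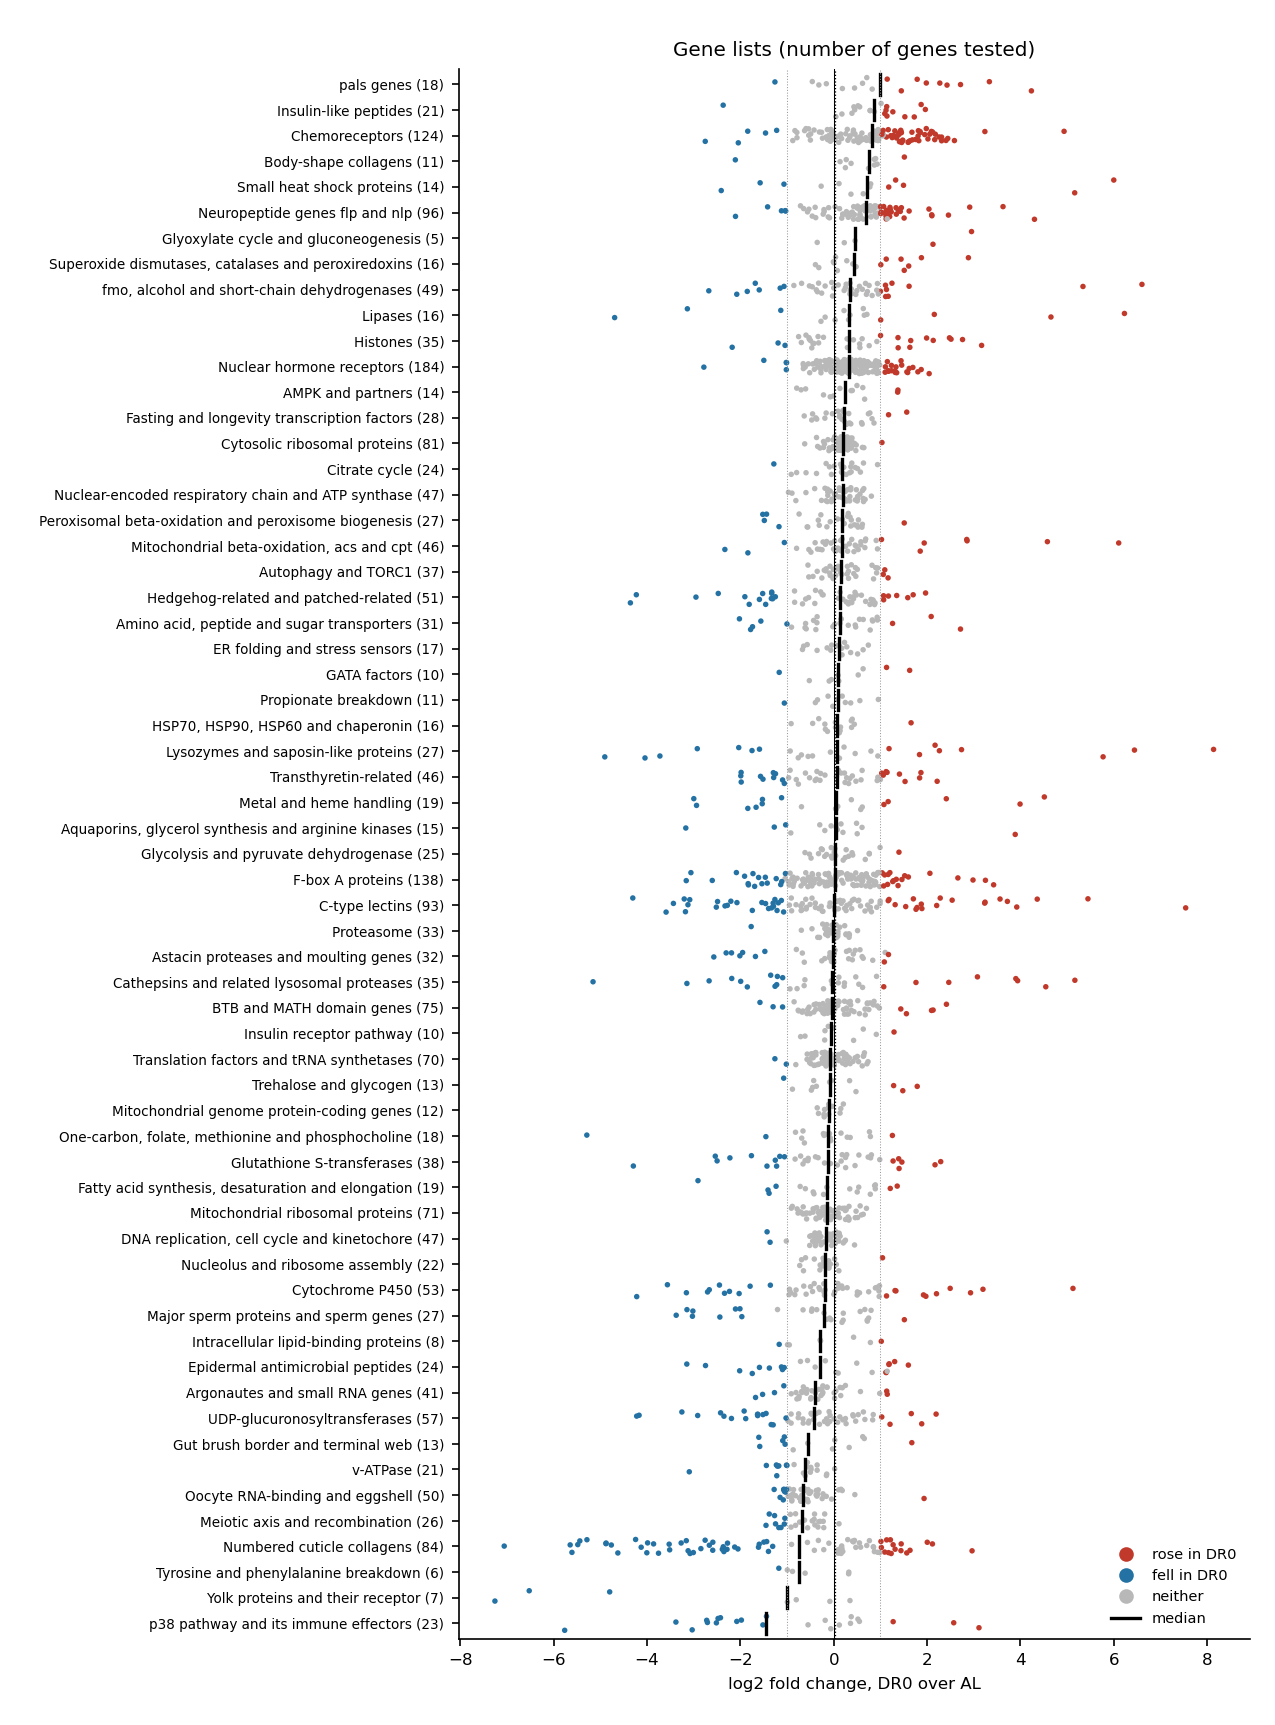
Each row is a list of genes with the number tested, each point a gene and each black bar the median log2 fold change, DR0 over AL, with rows ordered by that median. Red points rose, blue points fell, and the dotted line beside 0 is the median of all genes, 0.03. Insulin-like, chemoreceptor and neuropeptide lists lie on the right, ribosomal and respiratory lists form narrow bands near 0, and collagens, yolk and p38 effectors extend to the left.

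Intestinal genes outside metabolism fell too. *act-5*, the actin gene of gut microvilli, had 294, 289.6 and 268 CPM in the DR0 libraries, against 858, 839.9 and 853 CPM in the AL libraries (log2 fold change −1.58, s.e. 0.0340, adjusted p = 4.72e-31), and the intermediate filament gene *ifc-2* of the layer beneath them had 113, 118 and 120.0 CPM in DR0 and 255, 249.7 and 246 CPM in AL (log2 fold change −1.09). The call of *ifc-2* was lost with the length trend removed. *erm-1*, which links actin to the membrane, was lower by 0.56. Of 13 brush border and terminal web genes, 1 rose and 5 fell. Of 9 intestinal markers, 5 fell and 0 rose, and 3 fell with quantile normalization. The gut esterase gene *ges-1* was higher, with 32.7, 33.3 and 29.96 CPM in DR0 and 20.8, 17.8 and 18.3 CPM in AL (log2 fold change 0.75), and the GATA factor gene *elt-2* had 21.1, 25.8 and 23.3 CPM in DR0 and 21.6, 24.6 and 19.8 CPM in AL, so the markers did not move together. The part of gut mass in the changes of intestinal genes was not tested.

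Germline genes were lower by small steps. Of 50 genes for oocyte RNA-binding proteins and the eggshell, 8 fell and 1 rose, but 43 were lower at the adjusted p, with a median of −0.65. The number that fell was 5 without DR0 replicate 1, 4 with the length trend removed and 3 with quantile normalization. *oma-2* had 128, 139 and 130.1 CPM in DR0 and 235, 226 and 239 CPM in AL (log2 fold change −0.82), and *cbd-1*, an eggshell gene, had 329, 347 and 356 CPM in DR0 and 533, 533 and 519 CPM in AL (log2 fold change −0.62). *gld-1*, a translational repressor of the meiotic germ line, had 189, 201 and 197 CPM in DR0 and 407, 377 and 399 CPM in AL, with a log2 fold change of −1.01 that ran from −1.05 to −0.94 over 16 alternatives and was under the threshold in 6. *cpg-9* and *cpg-4*, chondroitin proteoglycan genes of the eggshell, fell by 1.28 and 1.15, and *cpg-7* rose by 1.93.

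Meiosis genes were lower by a similar amount. Of 26 genes of the meiotic axis and recombination, 8 fell, 0 rose and 23 were lower at the adjusted p, and 5 fell without DR0 replicate 2. *spo-11*, whose product makes the meiotic breaks, had 25.4, 20.04 and 23.6 CPM in DR0 and 51.6, 51.7 and 60.1 CPM in AL (log2 fold change −1.25, s.e. 0.0944, adjusted p = 4.88e-14), and *him-3* of the chromosome axis had 34.4, 31.6 and 31.3 CPM in DR0 and 75.4, 71.1 and 73.0 CPM in AL. *zim-1*, a pairing centre gene, fell by 1.45, *him-8* by 1.38 and *syp-2*, of the synaptonemal complex, by 1.27. *syp-1* was lower by 0.22 and *rad-51* by 0.29. Cell cycle genes changed less. Of 47 replication, cell cycle and kinetochore genes, 2 fell, the cyclin B genes *cyb-2.1* and *cyb-2.2*, which are close copies, with log2 fold changes of −1.43 and −1.36. Of 41 Argonaute and small RNA genes, 2 rose (4.88%) and 4 fell (9.76%), against 11.1% and 8.32% of all genes tested. *hrde-1*, a germline nuclear Argonaute gene, had 96.6, 91.6 and 87.0 CPM in DR0 and 214, 226 and 222 CPM in AL (log2 fold change −1.27, s.e. 0.0481, adjusted p = 4.76e-23), and *prg-1* and *csr-1* were lower by 0.69 and 0.79.

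Of 74 sperm genes in the file, 27 were tested, 8 fell and 1 rose. The members that fell were major sperm protein (*msp*) genes at a few CPM in AL, and these are near-identical copies. The number that fell was 13 without AL replicate 2, 14 without DR0 replicate 1 or 2 and 15 without DR0 replicate 3, with more of these genes past the filter on low counts. Of 10 sperm markers only 3 had enough reads to be tested. Zygotic embryo markers had a summed level of 77.6, 78.8 and 65.9 CPM in DR0 and 93.9, 94.1 and 86.4 CPM in AL, with every DR0 library below every AL library, and 2 of 11 tested rose and 3 fell. *pes-10* fell by 2.04 and *sdz-1* rose by 1.98. Germ line and oocyte markers summed to 1349, 1342 and 1300.0 CPM in DR0 and 2138, 2078 and 2136 CPM in AL. The part of embryo number in these falls was not tested.

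Muscle genes gave no common direction. Of 10 body wall muscle markers, 1 rose, the myosin gene *myo-3*, with 26.98, 27.1 and 27.6 CPM in DR0 and 11.4, 12.1 and 11.7 CPM in AL (log2 fold change 1.22, s.e. 0.120, adjusted p = 4.98e-11), and 1 fell, the troponin T gene *tnt-2*, with 104, 102 and 106 CPM in DR0 and 235, 236.3 and 249 CPM in AL (log2 fold change −1.21, s.e. 0.0450, adjusted p = 2.46e-23). The myosin gene *unc-54* and the paramyosin gene *unc-15* were higher by 0.48 and 0.75, and *mup-2*, another troponin T gene, was lower by 0.74. The body wall muscle markers together had 1902, 1955 and 1946 CPM in DR0 and 2123, 2115 and 2138 CPM in AL. None of 4 pharynx muscle markers and 1 coelomocyte marker tested rose or fell, and 3 of these 5 were higher at the adjusted p. Of 8 epidermal markers 2 fell, or 1 without AL replicate 3 or DR0 replicate 1. Of 3 glial markers 1 rose, but none without AL replicate 1, and of 6 markers of the somatic gonad and spermatheca 1 fell, but none without DR0 replicate 2. The coelomocyte marker rose without AL replicate 2 or 3. The glial marker *mir-228*, a microRNA gene that poly(A) libraries do not capture, had no read in any library.

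Some changes came in runs of neighbouring genes. Runs of at least 3 consecutive tested genes in the same direction held 185 of the genes that rose, in 53 runs, and 35 runs held genes that fell. The longest, on chromosome V from 2322038 to 2460893, held 10 genes that fell. It contains the *pud* genes, named for protein that is more abundant in dauer larvae, and the lectin gene *clec-209*. *pud-3* had 22.7, 17.9 and 20.2 CPM in DR0 and 670.4, 659 and 655 CPM in AL (log2 fold change −5.03, s.e. 0.0524, adjusted p = 2.22e-41), and *pud-4* had 136, 118 and 134 CPM in DR0 and 344, 354 and 349.7 CPM in AL. *pud-1.1* and *pud-1.2*, and *pud-2.1* and *pud-2.2*, are close copies, so their separate values are uncertain. The longest run of rises, 8 genes on chromosome II from 13792229 to 13828697, holds ZK131.11 and 7 histone genes. *his-14* had 8.06, 8.62 and 8.37 CPM in DR0 and 1.33, 2.23 and 2.11 CPM in AL (log2 fold change 2.13, s.e. 0.257, adjusted p = 5.40e-09), and the 7 others, with log2 fold changes from 1.25 to 3.17, include near-identical histone copies. Replication histone messages lack a poly(A) tail, so this library type counts few of them. *hil-1*, a linker histone gene, had 58.1, 56.5 and 49.7 CPM in DR0 and 11.1, 8.58 and 9.13 CPM in AL (log2 fold change 2.51, s.e. 0.111, adjusted p = 5.33e-21). A run of 6 rises on chromosome V from 4376619 to 4387502 holds F32D1.8 and 5 genes of F13A2 and has a median log2 fold change of 1.97. By symbol prefix, and chosen after their values were seen, 14 of 15 *nspc* genes rose, which are short and similar to each other, with log2 fold changes from 0.77 to 1.89 over the 15.

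The share that rose was higher among ncRNA and lincRNA genes than among all genes tested, of which 11.1% rose and 8.32% fell. Of 60 genes annotated as ncRNA, 16 rose and 4 fell, and of 40 lincRNA genes, 8 rose and 1 fell, against 10.9% and 8.39% of 12966 protein-coding genes. In the quintile of all genes with the lowest level 24.1% rose, and in that with the shortest exons 19.5%. The part of level and exon length in the counts of ncRNA and lincRNA genes was not tested. Of 378 pseudogenes, 50 rose and 27 fell, which is close to the shares of all genes tested. The share of F-box A genes that rose was also close to that of all genes, and the share that fell was somewhat higher. Of 138 F-box A genes, 18 rose and 17 fell, with 10 that rose under quantile normalization, and of 75 BTB and MATH domain genes, 5 rose and 3 fell, with 8 that rose without AL replicate 3 and 5 that fell without DR0 replicate 1. *fbxa-24* had 7.74, 5.71 and 10.7 CPM in DR0 and 0.819, 0.954 and 0.760 CPM in AL (log2 fold change 3.25, s.e. 0.322, adjusted p = 5.21e-11), and *fbxa-190* had 3.65, 2.08 and 2.88 CPM in DR0 and 11.8, 12.29 and 12.5 CPM in AL (log2 fold change −2.08, s.e. 0.211, adjusted p = 8.64e-11). *bath-47* had 19.8, 21.9 and 19.3 CPM in DR0 and 6.86, 6.89 and 6.93 CPM in AL and *bath-27* 14.3, 15.99 and 17.8 CPM in DR0 and 47.5, 47.9 and 48.8 CPM in AL.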

How the data were processed

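Counts of reads per gene were deposited by the authors as a single table of raw, unnormalized values for 9 libraries. Poly(A)-enriched RNA of whole worms was sequenced, and the study's methods describe alignment to WBcel235 and counting of exonic reads without regard to strand, in which a base shared by 2 genes counts for neither. The submitters' processing notes list STAR 2.73a and edgeR 3.24.3. Reads that fit several near-identical copies are uncertain. The 3 DR1 columns were not used, and the table holds no comparisons of the authors'.

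Of 46926 genes in the table, 13465 passed edgeR's filterByExpr over the 6 DR0 and AL libraries and held 99.77% of their reads. The remaining 9986 genes with any read were not tested. Library totals of 9203611 to 12012750 reads and a biological coefficient of variation of 5.13% set the precision. Libraries of a group differed by more than sampling noise (chi-square per degree of freedom 2.27 to 2.98), so none was taken for a copy of another, although this spread may be technical. TMM scaling, glmQLFit and glmQLFTest of edgeR 4.0.16 (R 4.3.3) gave the fold changes and Benjamini–Hochberg adjusted p values over all genes tested, and an s.e. is the fold change over the square root of F. Alternatives were limma-voom (limma 3.58.1), DESeq2 1.42.0, other scalings, filters and thresholds, a replicate block, leaving out each library, and, chosen after the data were seen, removal of the trend of the fold change on exon length (statsmodels 0.14.6). The fit was tested on simulated counts. Positions and exon lengths came from Ensembl release 115, which holds all 46926 identifiers, and figures were drawn with matplotlib 3.10.9. Same-numbered DR0 and AL libraries did not deviate together (correlations 0.016, −0.015 and −0.011), so replicate numbers were taken as names.

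Genes named in the text are the 12 largest rises and falls with at least 10 CPM in the higher group and libraries apart, the 8 largest gains and losses of reads, up to 4 rises and 4 falls of each list, key genes and cell type markers, the 3 longest runs of neighbours and genes at 0 in a group. The members and lists were chosen with earlier results of these data known. A planned search of promoters for motifs was not run.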

Additional observations from a re-analysis of the deposited data

How the results depend on the processing

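The number of genes that rose lay between 1182 (quantile normalization) and 1682 (no filter on low counts) and the number that fell between 1059 (total-count scaling) and 1266 (no filter) under the tests, scalings and filters tried, except with a minimum of 5 CPM, which left 738 that rose and 720 that fell among fewer genes tested. limma-voom gave 1530 and 1128, DESeq2 1399 and 1108. Without the fold threshold 4232 were higher and 4341 lower. A test against 2-fold itself kept 534 and 667. Leaving out each library in turn gave 1430 to 1586 that rose and 1128 to 1153 that fell. With the exon length trend removed, which was chosen after seeing the data, 1323 rose and 1186 fell. With the replicate number as a block 1470 rose and 1117 fell, but the numbers did not pair the libraries.

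Of the genes the text names, 200 rose or fell. Each was checked under every other test, scaling, filter, block and left-out library in which it was tested. It was also checked with the exon length trend removed, and 188 kept their call in all of these. The other 12 dropped below a threshold in at least 1, and the sign held for all 200. The test against 2-fold, which is stricter, kept 174. *vit-5*, which did not pass, was slightly lower (log2 fold change −0.08), but higher with quantile normalization (0.35) and with the exon length trend removed (0.0206). The cause was not tested. Under another scaling or with that trend removed the median of 12 of 72 lists changed sign, each within 0.2 of 0 before. Of 144 counts of members that rose or fell, 47 moved by over 1.5 times with a minimum of 5 CPM, 27 with quantile normalization, 15 without a filter and 16 with the trend removed. The 9986 genes with few reads were not tested. Without the filter, 1342 of the 1682 genes that rose and 1114 of the 1266 that fell were among those called with it.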
